A study of Mus musculus with 5 samples.

Results

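The genes described here are the Hox genes of the mouse, taken as every gene of the count tables named Hoxa, Hoxb, Hoxc or Hoxd followed by a number. The rule found 39 of the 35478 genes listed: 11 in the Hoxa cluster, 10 in Hoxb, 9 in Hoxc and 9 in Hoxd. A member was taken as measured if at least 1 kidney had 10 counts or more, which held for 31 members. The other 8, Hoxa13, Hoxb1, Hoxb13, Hoxc12, Hoxc13, Hoxd1, Hoxd12 and Hoxd13, were not measured, and 5 of them had 0 counts in every kidney. The highest count of any of the 8 was 2, and a count of 0 allows up to 3 counts in a library. Of the 31, 30 passed the filter on low counts and were tested. Hoxc11 did not.

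RNA-seq was performed on injured kidneys of 2 mice that were Prdm16fl/fl and of 3 that were Ksp-Cre/Prdm16fl/fl, 1 library per mouse. The labels give the strain as C57BL/6J, and the methods give C57BL/6J;129. Both groups were male mice of 7 to 8 weeks that carried loxP sites around exon 9 of Prdm16 on both alleles. The second group also carried Ksp-Cre, whose kidney-specific cadherin promoter is active in tubular epithelium, so that cells outside the tubules are not targeted. All mice underwent unilateral ischemia-reperfusion injury (UIRI): the left pedicle was clamped for 35 minutes at a bath temperature of 38.5 °C, the right kidney was taken out on day 10, and tissue was collected 24 hours later, on day 11. The methods give kidney cortex as the tissue sequenced. No uninjured kidney was analysed here, so each comparison asks how loss of tubular Prdm16 went with Hox transcript levels within injured kidneys only.

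Hox genes encode homeodomain transcription factors that give cells their position along the body axis. In mammals they lie in clusters on separate chromosomes, and genes of the same number in different clusters are paralogues, descended from a shared ancestor. Genes with low numbers sit at the end of a cluster that is active toward the head, and genes with high numbers at the end that is active toward the tail. The kidney depends on them during development: Hoxa11, Hoxc11 and Hoxd11 act with Eya1 and Pax2 in nephron progenitors to switch on Six2 and Gdnf, the Hox10 paralogues are needed in the renal stroma, and Hoxb7 is expressed in the ureteric bud and collecting duct, where its promoter is widely used to drive transgenes.

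Each kidney had between 14939040 and 16425161 counts in total. Prdm16, a zinc finger transcription factor, stood at 25.3 and 20.02 CPM (counts per 1000000 TMM-scaled counts) in the control Prdm16fl/fl mice and at 17.1, 16.95 and 17.99 CPM in those with Ksp-Cre. The groups did not overlap, but the difference did not pass the test (log2 fold change −0.38, SE 0.15, adjusted p = 0.26, edgeR). Counts over the whole gene do not show exon 9 on its own. Markers of kidney segments differed between the groups. Of the proximal tubule markers, 8 of 8 had a fitted log2 fold change below 0 and lay wholly below the control kidneys, with a sum of 6581 to 6848 CPM against 1364 to 2696 CPM, the lowest in mouse 3. Of these, Slc22a8, an organic anion transporter, passed the call rule (log2 fold change −2.68, adjusted p = 0.024 in edgeR). The lists for the thick ascending limb (4 of 4), distal convoluted tubule (4 of 4), collecting duct principal cells (8 of 8), intercalated cells (4 of 4) and podocytes (4 of 4) had every fitted value below 0, with 3, 3, 4, 4 and 3 markers wholly below. Pvalb, on the distal convoluted tubule list, had 0 counts in Ksp-Cre/Prdm16fl/fl mouse 3. Fitted values were above 0 for 6 of 7 stromal markers (4 wholly above; sum of 379.8 to 579.6 against 619 to 914 CPM), for 3 of 4 markers of the medullary loop and papilla (2 wholly above; 119 to 122 against 167 to 253 CPM) and for 4 of 4 erythroid markers (4 wholly above; 6.61 to 10.7 against 39.4 to 147 CPM). Among all genes tested, 21.3% lay wholly below and 20.3% wholly above. On the remaining lists, fitted values were below 0 for 4 of 5 endothelial markers (2 wholly below) and 2 of 2 urothelial markers tested (1 wholly below). They were below 0 for 3 of 4 lymphocyte markers and above 0 for 3 of 4 macrophage markers, with 0 separated on either list. No marker other than Slc22a8 passed the call rule. Nphs1, on the podocyte list, had an adjusted p of 0.041 in edgeR, but its log2 fold change of −0.85 was under the size asked for. In bulk tissue, fewer cells of a type and less RNA per cell cannot be told apart, and the part of these differences in the Hox values below was not tested.

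The homeobox, the stretch that codes for the DNA-binding homeodomain, shows how far paralogues can be told apart in counts. Hoxb9 is shown because it is the member with the smallest p-value. Hoxc9 is shown because its transcript has the longest exact run in common with that of Hoxb9 among its paralogues. That run is not contained in the homeobox shown. The sequences were read from GENCODE M21 (GRCm38) on the plus strand, at chr11:96274659-96274838 for Hoxb9 and chr15:102983930-102984109 for Hoxc9. Capitals mark bases that differ from Hoxb9.
Hoxb9: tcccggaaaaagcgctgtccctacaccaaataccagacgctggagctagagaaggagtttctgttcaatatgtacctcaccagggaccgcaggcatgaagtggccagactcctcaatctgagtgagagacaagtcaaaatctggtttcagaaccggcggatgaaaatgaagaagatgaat
Hoxc9: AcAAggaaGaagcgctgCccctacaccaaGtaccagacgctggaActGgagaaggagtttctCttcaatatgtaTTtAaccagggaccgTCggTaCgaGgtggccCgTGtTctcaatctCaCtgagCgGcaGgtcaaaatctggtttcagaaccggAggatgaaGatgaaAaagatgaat

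Of 180 bases, 29 differ between Hoxb9 and Hoxc9. Over the 42 pairs of Hox genes with the same number, the homeoboxes were 67.2% to 93.9% identical (median 80.6%), and over the 699 other pairs 46.1% to 88.9% (median 60.6%). Exact runs were searched in the longest protein-coding transcript of each gene, untranslated bases included. The longest run shared by any 2 members was 52 bases, between Hoxa6 and Hoxb4, followed by 50 bases between Hoxb9 and Hoxc9. No longer exact run was shared by any pair.

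Levels across genes were compared in TPM (transcripts per 1000000), which divides by gene length. This length joins all annotated exons, 10599 bases for Hoxa3 and 9627 bases for Hoxb3, so ranks and shares depend on the annotation too. Hoxb3 ranked 18 in TPM, but had 72.8 to 98.7 CPM, against 56.5 to 77.3 CPM for Hoxb6. Hoxd8 was the most abundant member, at 142 to 224 TPM over the 5 kidneys (mean 176 ± 34.7, SD, n = 5), and its range lay wholly above that of the next gene. It was followed by Hoxb6 (mean 100.03 TPM), Hoxa9 (72.5 TPM), Hoxb9 (68.2 TPM), Hoxd9 (63.8 TPM), Hoxb8 (56.0 TPM) and Hoxb7 (54.4 TPM). Hoxc11 was the lowest measured, at a mean of 2.43 TPM (SD 2.55), and the highest and lowest means differed 72.2-fold. That lowest mean leaned on Ksp-Cre/Prdm16fl/fl mouse 3, at 6.97 TPM, against 0.845 to 1.56 TPM in the other kidneys. In this order, the ranges of 29 of the 30 neighbouring pairs overlapped, and only those of Hoxd8 and Hoxb6 were apart. Ranges over kidneys do not compare genes within a kidney. Hoxb6 overlapped Hoxa9 in range but was above it in every kidney (80.4, 73.7, 129, 121 and 96.4 against 70.7, 68.2, 77.6, 76.6 and 69.6 TPM). In all, 21 members had a mean of at least 10 TPM. By paralogue number, groups 8 and 9 had the largest shares of the summed Hox TPM of a kidney, at 21.1% to 26.4% and 20.6% to 22.4%. Taken in wider bins, groups 5 to 8 made up 49.3% to 51.2%, groups 9 to 13 made up 28.8% to 32.0%, and groups 1 to 4 made up 17.5% to 20.3%. Summed CPM, which are not divided by length, were 414 to 485, 313 to 363 and 260 to 275 for these bins. All Hox genes summed to 993 to 1110 CPM. At the tail end of the clusters, groups 12 and 13 had no measured member.

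**Figure D1:**
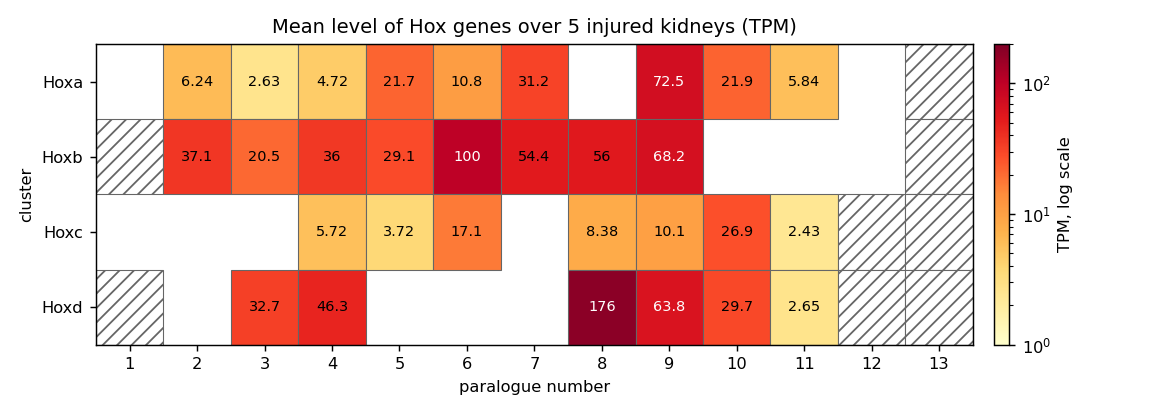
Mean TPM over the 5 kidneys for Hox genes, with clusters as rows, paralogue numbers as columns and colour on a log scale. Hatched boxes are genes not measured, and empty boxes are positions with no gene shown. Hoxd8 has the darkest box (176 TPM), and hatching fills columns 12 and 13 wherever a gene exists.

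By cluster, Hoxb and Hoxd were the most abundant and Hoxc the least. Hoxb gave 33.2% and 38.1% of the Hox TPM in the Prdm16fl/fl mice and 40.6%, 43.0% and 43.3% in the Ksp-Cre/Prdm16fl/fl mice, so that the groups did not overlap. Hoxd gave 41.6% and 35.8% against 37.0%, 31.02% and 29.4%, and here the groups overlapped. Hoxa gave 15.6% to 19.3% and Hoxc 6.82% to 8.44% over all kidneys. The ratio of Hoxb to Hoxd TPM was 0.798 and 1.06 in the Prdm16fl/fl mice and 1.10, 1.39 and 1.47 in the Ksp-Cre/Prdm16fl/fl mice, with 1.06 and 1.10 only just apart. These shares are taken within a library and do not depend on scaling between libraries. The TPM values themselves do: over all genes tested, the median difference in log2(TPM + 1) between the groups was 0.21, so genotypes were compared in TMM-scaled CPM.

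**Figure D2:**
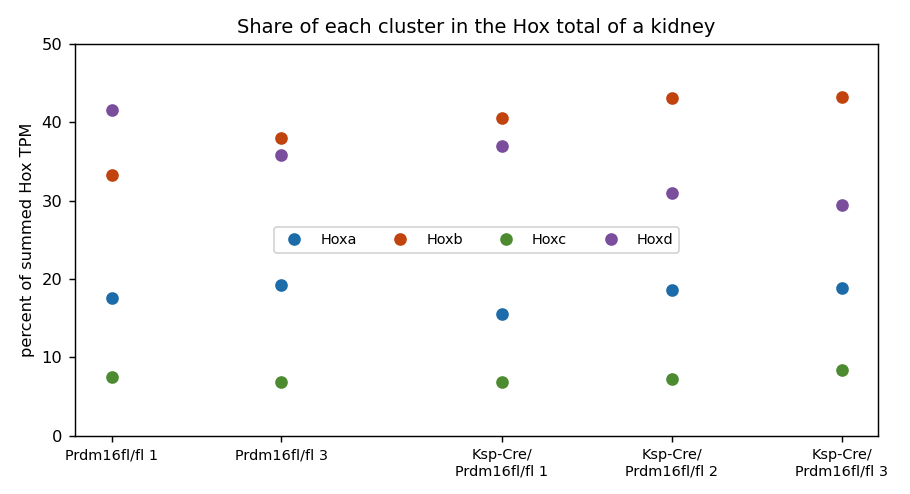
Percent of the summed Hox TPM of each kidney that came from each cluster, 1 point per cluster and kidney. The Hoxb points of the 3 Ksp-Cre/Prdm16fl/fl kidneys (40.6% to 43.3%) lie above both Prdm16fl/fl kidneys, while the Hoxd points of the groups overlap.

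Between the genotypes, no Hox gene passed the call rule of an adjusted p under 0.05 with a log2 fold change of 1 or more in either direction, which 0.708% of all 16394 genes tested passed (edgeR quasi-likelihood test). None had an adjusted p under 0.05 at any size, against a background of 0.976%. At an unadjusted p under 0.05 there were 4 members, or 13.3% of the 30, against 18.8% of all genes. All 4 lay above 0, toward Ksp-Cre/Prdm16fl/fl, where the background is 7.64%, and all 4 were Hoxb genes: Hoxb5, Hoxb6, Hoxb8 and Hoxb9. No member lay below 0 at that p, against 11.2% of all genes. DESeq2 also gave 4 members at an unadjusted p under 0.05 and none at an adjusted p under 0.05, where its background was 7.38%. The fitted log2 fold change was positive for 21 members and negative for 9, and positive for 54.0% of all genes tested. The median was 0.14 over the Hox members and 0.04 over all genes. The groups did not overlap for 13 members (43.3%), near the 41.6% of all genes: 10 were above, with a background of 20.3%, and 3 below, with a background of 21.3%. For 24 of the 30 members the 95% interval lay within a log2 fold change of 1 in either direction, and those where it reached beyond included Hoxa11, Hoxc5, Hoxc9, Hoxd3 and Hoxd11.

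**Figure D3:**
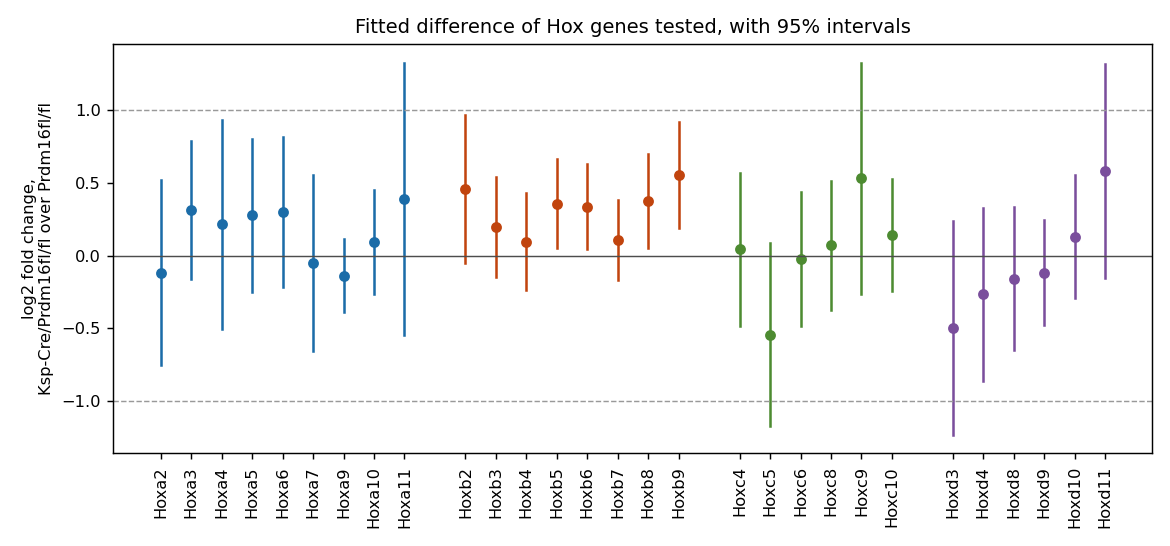
Fitted log2 fold change of 29 of the Hox genes tested, Ksp-Cre/Prdm16fl/fl over Prdm16fl/fl, as points with 95% intervals as bars, ordered by cluster and number. Dashed lines mark a log2 fold change of 1 in either direction. All 8 Hoxb points lie above 0, while the other clusters have points on both sides.

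The Hoxb cluster (chr11:96085142-96259080 in the coordinates of the files) had all 8 tested members above 0, with a median log2 fold change of 0.35 and a range of 0.10 to 0.56. This count was 8 of 8 under each scaling and without any single mouse. Genes of a cluster share regulatory elements, so the 8 are not independent observations. Hoxb9, at the tail side of the tested Hoxb genes, stood at 54.1 and 63.1 CPM in the control mice and at 86.6, 75.6 and 96.5 CPM in mice 1, 2 and 3 of the Ksp-Cre/Prdm16fl/fl group. Every Ksp-Cre/Prdm16fl/fl value was above both others. The log2 fold change was 0.56 (SE 0.15, adjusted p = 0.13 in edgeR). In DESeq2 its adjusted p was 0.059.

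Hoxb8 stood at 53.5 and 61.3 CPM against 71.6, 69.6 and 82.8 CPM, a log2 fold change of 0.38 (SE 0.13, adjusted p = 0.21 in edgeR). Hoxb6 was at 56.5 and 57.04 CPM against 77.3, 72.8 and 65.0 CPM, a log2 fold change of 0.34 (SE 0.12, adjusted p = 0.21 in edgeR). Hoxb5 was the least abundant of the 4, at 18.7 and 19.8 CPM against 24.7, 25.3 and 24.1 CPM, a log2 fold change of 0.36 (SE 0.13, adjusted p = 0.21 in edgeR). None of these genes overlapped between the groups, and which Ksp-Cre/Prdm16fl/fl kidney was highest differed from gene to gene. Hoxb2 and Hoxb3 also separated, with log2 fold changes of 0.46 (0.26 to 0.69 leaving out single mice, the ends without Prdm16fl/fl mice 1 and 3) and 0.20 (0.088 without Ksp-Cre/Prdm16fl/fl mouse 3). Hoxb4 and Hoxb7, the ureteric bud gene, overlapped between the groups, with 0.10 and 0.11. Without Ksp-Cre/Prdm16fl/fl mouse 3, 2 Hox genes passed an adjusted p under 0.05, Hoxb6 (log2 fold change 0.41, adjusted p = 0.021) and Hoxb9 (0.47, adjusted p = 0.026). In that fit 18.9% of all genes passed, and 7.82% passed and were higher, so 2 of 30 members is not above the background. With any of the other 4 mice left out, 0 of all genes tested passed, Hox genes included.

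**Figure D4:**
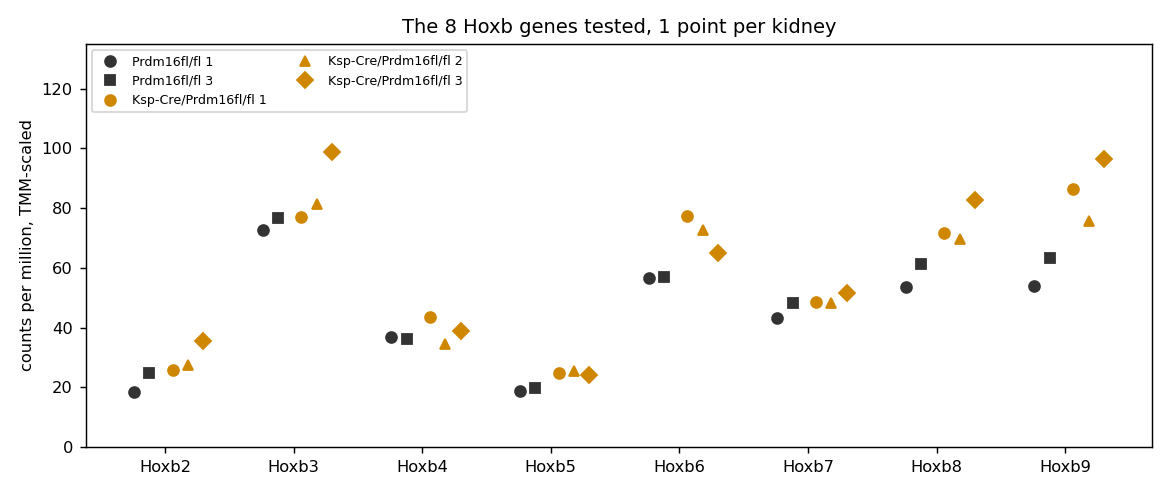
TMM-scaled CPM of the 8 Hoxb genes tested, 1 point per kidney, dark for Prdm16fl/fl and orange for Ksp-Cre/Prdm16fl/fl. Hoxb5, Hoxb6, Hoxb8 and Hoxb9 show all orange points above the dark ones, while Hoxb4 and Hoxb7 overlap.

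The 250 bases before the annotated starts of Hoxb8 and Hoxd8 are shown because Hoxd8 was the most abundant member and Hoxb8 is its paralogue in the Hoxb cluster. A difference between them was not tested. They were taken from RefSeq (GRCm38.p6), at chr11:96281655-96281904 and chr2:74704365-74704614, both on the plus strand, and hold no annotated UTR or coding bases. RefSeq windows matched 22 Hox genes, and Hoxb5, Hoxb6 and Hoxb9 were not among them. Capitals mark TGATNNAT (a Pbx and Hox composite motif), TATAAA (the TATA box) and CCAAT, each searched on both strands, with no overlap between matches in these windows.
Hoxb8: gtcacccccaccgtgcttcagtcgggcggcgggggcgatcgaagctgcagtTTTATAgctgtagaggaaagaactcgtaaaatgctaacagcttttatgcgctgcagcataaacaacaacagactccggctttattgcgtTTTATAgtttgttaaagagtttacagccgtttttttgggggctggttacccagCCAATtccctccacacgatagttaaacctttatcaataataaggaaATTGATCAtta
Hoxd8: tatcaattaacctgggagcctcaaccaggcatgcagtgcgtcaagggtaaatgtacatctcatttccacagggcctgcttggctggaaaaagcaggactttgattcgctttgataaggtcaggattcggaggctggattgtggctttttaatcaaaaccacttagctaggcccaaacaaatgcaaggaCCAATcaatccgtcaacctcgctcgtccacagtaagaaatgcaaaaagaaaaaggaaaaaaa

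The Hoxb8 window held TGATNNAT once, TATAAA at 2 places on the minus strand and CCAAT once, with 12 CpG dinucleotides. The Hoxd8 window held CCAAT only, with 6 CpG dinucleotides. Among all 32851 windows of this length, 7.68% held TGATNNAT, 12.4% TATAAA and 33.8% CCAAT. Among the 24 Hox windows these shares were 16.7%, 16.7% and 58.3%. A match is a description of the letters and does not show binding.

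The Hoxd cluster (chr2:74498569-74595486) had 2 of 6 tested members above 0, with a median log2 fold change of −0.14. This rested on single mice: without Prdm16fl/fl mouse 1 the median was 0.0046 with 3 of 6 above 0, without Prdm16fl/fl mouse 3 it was −0.27, and with mouse 1, 2 or 3 of the Ksp-Cre group left out it was −0.26, −0.027 or −0.088. Hoxd8 stood at 187 and 147 CPM in the control mice and at 181, 122 and 147 CPM in those with Ksp-Cre. The groups overlapped, with a log2 fold change of −0.16 (95% interval −0.65 to 0.33). Hoxd9 was at 62.2 and 54.0 CPM against 60.5, 46.7 and 53.6 CPM, a log2 fold change of −0.12. It overlapped as well. Hoxd11, one of the nephron progenitor genes, had the highest log2 fold change of all members, 0.58 (SE 0.30, adjusted p = 0.36 in edgeR), at low levels of 2.56 and 4.45 CPM against 5.22, 5.43 and 5.06 CPM. The 3 Ksp-Cre/Prdm16fl/fl values were close together and above both others, and the fold rested on the low value of Prdm16fl/fl mouse 1: without that mouse it was 0.23, and without Prdm16fl/fl mouse 3 it was 1.03. Its paralogue Hoxa11 showed the same low value in that mouse (2.76 CPM, against 5.46 to 6.87 CPM in the other 4).

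Hoxd3 and Hoxd4, at the head side of the cluster, were lowest in Ksp-Cre/Prdm16fl/fl mouse 3. Hoxd3 stood at 50.4 and 45.0 CPM against 42.1, 38.7 and 20.4 CPM, a log2 fold change of −0.50 (SE 0.30, adjusted p = 0.43 in edgeR). Hoxd4 was at 59.7 and 48.8 CPM against 55.3, 48.3 and 31.7 CPM, a log2 fold change of −0.27 (SE 0.25, adjusted p = 0.60 in edgeR). Hoxd3 separated between the groups and Hoxd4 overlapped. Without mouse 3 the log2 fold changes were −0.24 for Hoxd3 and −0.06 for Hoxd4, so both moved by over 1.5 times with that kidney. Haglr, a noncoding RNA transcribed from the opposite strand between Hoxd1 and Hoxd3, was also lowest in that kidney, with 110 and 131 counts against 102, 105 and 49 counts. Ksp-Cre/Prdm16fl/fl mouse 3 also had the lowest proximal tubule marker sum, and the part of this in its Hoxd values was not tested. Its counts differed from those of its group across genes, not only in the Hox clusters. Chi-square per degree of freedom was 74.5 and 62.7 against mice 1 and 2, and 9.90 between mice 1 and 2. The share of all genes that were lowest or highest in mouse 3 was not counted.

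The same kidney was the highest in genes of the Hoxc tail end. Hoxc11 had 5 and 8 counts in the Prdm16fl/fl mice and 9, 9 and 40 counts in the Ksp-Cre/Prdm16fl/fl mice. Hotair, the long noncoding RNA between Hoxc11 and Hoxc12, had 3 and 1 counts against 0, 3 and 11 counts. Both were too low for the filter and were not tested, and only mouse 3 stood apart from the rest. Hotairm1, a noncoding RNA of the Hoxa cluster, was also highest in this kidney, at 231 counts against 113 to 179 counts in the other 4, and overlapped between the groups.

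**Figure D5:**
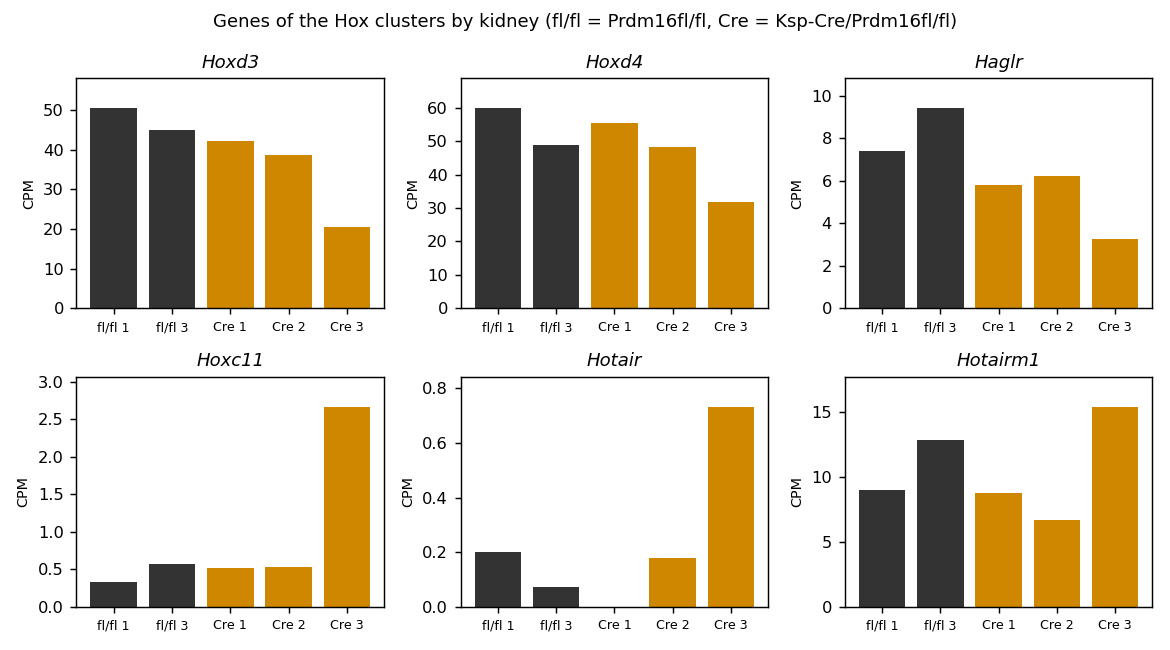
TMM-scaled CPM by kidney for Hoxd3, Hoxd4, Haglr, Hoxc11, Hotair and Hotairm1, with each panel on its own axis from 0. The last bar, Ksp-Cre/Prdm16fl/fl mouse 3, is the lowest of the 5 for Hoxd3, Hoxd4 and Haglr and the highest for the other genes.

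The Hoxa cluster, on chromosome 6, had 7 of 10 tested members above 0 (8 when scaled by library size), with a median log2 fold change of 0.25. Without Prdm16fl/fl mouse 1 it was 0.051 with 6 of 10 above 0, and with mouse 3 of the Ksp-Cre group left out it was 0.12. Hoxa9, its most abundant member, stood at 99.4 and 106 CPM against 93.4, 92.4 and 93.9 CPM, a log2 fold change of −0.14 (SE 0.10, adjusted p = 0.51 in edgeR). It separated between the groups, with the Ksp-Cre/Prdm16fl/fl kidneys below, the opposite side from its paralogue Hoxb9. The 4 members of group 9 thus had log2 fold changes of −0.14, 0.56, 0.53 and −0.12 in the order of the clusters. Hoxa7 was at 26.4 and 25.3 CPM against 19.5, 21.9 and 33.6 CPM, and Hoxa10 at 25.4 and 28.8 CPM against 27.6, 32.7 and 26.7 CPM. Both overlapped, with log2 fold changes of −0.05 and 0.09. Mice 1 and 2 of the Ksp-Cre/Prdm16fl/fl group were below both control mice for Hoxa7 and mouse 3 was above them, and without mouse 3 its log2 fold change was −0.32. Hoxa3 and Hoxa6 separated upward, with log2 fold changes of 0.32 and 0.30 that did not pass the test. For Hoxa6 it was 0.57 with control mouse 1 left out and 0.070 with control mouse 3 left out. Antisense genes cover 38.8% of the exon bases of Hoxa3, 23.6% of Hoxa10, 24.8% of Hoxa11 and 19.4% of Hoxb2, and whether counting used the strand is not given in the sources used here, so the reads of these 4 genes are uncertain.

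The Hoxc cluster (chr15:102829566-102945281) had 4 of 6 tested members above 0 (5 when scaled by library size), with a median log2 fold change of 0.06. Without Prdm16fl/fl mouse 1 it was 0.21 with 6 of 7 above 0, with mouse 2 of the Ksp-Cre group left out 0.098, and with mouse 3 left out 0.0197. Hoxc10, whose paralogue group acts in the renal stroma, stood at 20.2 and 19.8 CPM against 20.7, 20.1 and 25.4 CPM. Hoxc6 was at 25.2 and 18.7 CPM against 24.5, 19.4 and 20.8 CPM. Both overlapped, with log2 fold changes of 0.14 and −0.02. Hoxc9 was at 10.7 and 7.25 CPM against 9.31, 12.2 and 17.5 CPM, a log2 fold change of 0.53 (SE 0.33, adjusted p = 0.43 in edgeR), and it too overlapped. Leaving out single mice, it ranged from 0.26 (without Ksp-Cre/Prdm16fl/fl mouse 3) to 0.84 (without Prdm16fl/fl mouse 1). Hoxc5 had the lowest log2 fold change of all members, −0.54 (SE 0.26, adjusted p = 0.32 in edgeR), at 4.79 and 5.67 CPM against 4.03, 3.78 and 2.93 CPM. It was the only Hoxc gene tested whose groups did not overlap.

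By paralogue number, medians were close together only in the wider bins. Over the tested members they were 0.15 for groups 1 to 4, 0.11 for groups 5 to 8 and 0.14 for groups 9 to 13. By single number they ran from 0.031 for group 7 to 0.49 for group 11, each with 2 tested members. With 3 or more tested members, they ran from 0.071 for group 4 to 0.30 for group 6. Among groups with 3 or more tested members, the group 10 genes, Hoxa10, Hoxc10 and Hoxd10, lay closest together, between 0.09 and 0.14, and all 3 overlapped between the genotypes.

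Among the 24 other genes that lie between the outermost Hox genes of a cluster, 16 were tested and 8 were above and 8 below 0, with a median log2 fold change of 0.15 (0.095 to 0.19 leaving out single mice) and none called. The groups did not overlap for 50% of the 16, against 41.6% of all genes. Wholly above were 5, in the Hoxa, Hoxb and Hoxc clusters, and wholly below were 3, with backgrounds of 20.3% and 21.3%. The highest was LOC115490409 in the Hoxa cluster (0.70, SE 0.38) and the lowest was Haglr (−0.72, SE 0.32). Singled out after their values were seen, Gm53 and Gm51876 were among the 5 wholly above. They lie next to each other between Hoxb13 and Hoxb9. Gm53 stood at 22.3 and 19.1 CPM against 26.3, 28.0 and 33.0 CPM (log2 fold change 0.49, adjusted p = 0.18 in edgeR), and Gm51876 at 18.6 and 20.6 CPM against 24.5, 23.5 and 25.7 CPM (0.33, adjusted p = 0.26 in edgeR). In contrast, Hoxb5os and Hoxb3os, antisense within the cluster, had log2 fold changes of −0.22 and −0.02 and overlapped.

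The proteins that work with or set Hox genes were then examined by lists. None of their tested members passed the call rule. Hox proteins bind DNA together with TALE homeodomain cofactors of the Pbx, Meis and Pknox families. Of 9 cofactors tested, 7 were above and 2 below 0 (median 0.15, and 0.046 to 0.21 leaving out single mice), from Meis2 (−0.10) to Meis3 (0.42, adjusted p = 0.26 in edgeR). Only Meis3 separated between the groups (11.1%, against 41.6% of all genes). Polycomb complexes keep Hox genes silent, and Trithorax and MLL complexes keep them active. Of 28 Polycomb subunits, 22 were above and 6 below 0 (median 0.20, and 0.11 to 0.23 leaving out single mice). At an unadjusted p under 0.05 were 5 (17.9%, against 18.8% of all genes), 4 higher and 1 lower, where the backgrounds are 7.64% and 11.2%. The groups did not overlap for 39.3% of the subunits, against 41.6% of all genes. Of these, 10 were above and 1 below, with backgrounds of 20.3% and 21.3%. The highest was Phf19 (0.61, adjusted p = 0.47) and the lowest was Ring1 (−0.46, adjusted p = 0.23), a ubiquitin ligase of Polycomb complex 1, which was lowest in Ksp-Cre/Prdm16fl/fl mouse 3 (52.7 and 52.95 against 43.8, 40.8 and 30.8 CPM; adjusted p from edgeR). Of the 15 genes on the Trithorax and MLL list, which also holds genes that are not subunits of these complexes, 11 were above and 4 below 0. The median was 0.17 (0.043 to 0.18 leaving out single mice), values ran from Dpy30 (−0.14) to Kdm6b (0.41), and none had an unadjusted p under 0.05. On this list 33.3% separated between the groups, 3 above and 2 below.

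Retinoic acid and Cdx factors switch on Hox genes in the embryo. Cdx1 and Cdx2 had 0 counts in every kidney. Of the 11 genes tested on this list, all receptors, enzymes or binding proteins of retinoids, 11 were above 0, from Rara (0.02) to Cyp26a1 (0.92, SE 0.63, at 4 and 8 counts against 12, 8 and 19 counts), with a median of 0.34 (0.12 with mouse 3 of the Ksp-Cre group left out, 0.58 without Prdm16fl/fl mouse 3). At an unadjusted p under 0.05 were 2 of them (18.2%), both higher, against 18.8% of all genes in either direction and 7.64% higher. The groups did not overlap for 2 of the 11 (18.2%), both above, where the backgrounds are 41.6% in either direction and 20.3% above. Named after its value was seen, Rarg, a retinoic acid receptor, had a log2 fold change of 0.65 (SE 0.14, adjusted p = 0.080 in edgeR). Of the partners and targets of Hox genes in kidney development, 8 were tested, with 4 above and 4 below 0 and a median of −0.06 that was above 0 under some settings. The highest was Sall1 (0.39) and the lowest was Lhx1 (−0.72, adjusted p = 0.23 in edgeR). Of these 8, 37.5% separated between the groups, 1 above and 2 below. Six2, which marks nephron progenitors, had 0 counts in every kidney.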

How the data were processed

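RNA-seq of kidney from 2 Prdm16fl/fl and 3 Ksp-Cre/Prdm16fl/fl mice after UIRI was analysed, grouped as the labels give it. The authors deposited raw counts per gene and mouse, and TPM and FPKM made by the authors from these counts by gene length. Both were recomputed from the counts and agreed within rounding. FPKM and gene length were used only for this and for TPM. The submitters' processing notes name CASAVA, featureCounts 2.0.1, DESeq2 1.16.1 and a human genome build, which the mouse coordinates of the files cannot have. The mouse build, the aligner and the use of strand are not given in the sources used here. Positions of clusters are those of the files. Sequences come from GENCODE M21 (GRCm38) and RefSeq (GRCm38.p6), and no position was converted. For 5 genes, entries split over several lines were joined.

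Genes were filtered with filterByExpr (16394 kept), scaled with TMM and tested without covariates by the quasi-likelihood test of edgeR 4.0.16 in R 4.3.3, with Benjamini-Hochberg adjustment over all genes kept. The call rule was a log2 fold change of 1 or more, up or down, together with an adjusted p under 0.05. SE is the log2 fold change over the root of the F statistic, and 95% intervals use its degrees of freedom. CPM are per 1000000 TMM-scaled counts. Alternatives were DESeq2 1.42.0, other scalings and filters, leaving out each mouse, and a replicate block. The tests were checked on simulated counts. The labels name 1 mouse per library, and p-values measure the spread between these mice. With 2 against 3 mice, an exact permutation of 1 gene has 10 splits and cannot go below a one-sided p of 0.1. Counts of 14939040 to 16425161 per kidney limit genes near 10 counts most.

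Members described in every kidney are the 3 with the highest mean TPM in each cluster, those with an unadjusted p under 0.05 and the 3 highest and 3 lowest log2 fold changes. Of other lists, called genes are named, and, except for cell type markers, the highest and lowest log2 fold change. Other genes were named with their values in view. The members and lists were chosen with earlier results of these data known. Some genes and sequences are not reported here.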

Additional observations from a re-analysis of the deposited data

How the results depend on the processing

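No Hox gene passed the call rule under any of the 12 alternatives, but in 5 of these, leaving out any mouse other than Ksp-Cre/Prdm16fl/fl mouse 3 and the replicate block, 0 of all genes passed it, and in the other 7 it was 46 to 733 genes. Scaled by library size, the median log2 fold change was 0.15 over all genes in place of 0.04 and 0.24 over the Hox members, with 16 members wholly above and 1 wholly below the Prdm16fl/fl mice (29.4% and 15.2% of all genes), and Hoxa7 (0.0499) and Hoxc6 (0.0870) turned positive. Relative to all genes the Hox median was 0.10 under both scalings. Leaving out each mouse in turn, members at an unadjusted p under 0.05 ranged from 0 to 5 higher and 0 to 1 lower (2.62% to 16.5% and 5.19% to 17.7% of all genes), members that did not overlap from 10 to 16 above and 3 to 8 below (23.9% to 33.3% and 25.0% to 30.4% of all genes), and the Hox median from 0.09 to 0.22. The count of 4 higher members fell to 0 with Prdm16fl/fl mouse 1 left out (3.09% of all genes), and to 2 with mouse 1 or with mouse 2 of the Ksp-Cre/Prdm16fl/fl group left out (6.03% and 5.32%). With 1 Prdm16fl/fl mouse left, that mouse is assumed to vary like the other group. Log2 fold changes that turned sign ranged from −0.32 to 0.0227 for Hoxd8, −0.10 to 1.12 for Hoxa11, −0.23 to 0.21 for Hoxc6, −0.20 to 0.33 for Hoxc4, −0.28 to 0.00950 for Hoxa2 and −0.32 to 0.10 for Hoxa7, and 24 of the 30 members kept their sign under every alternative. The median of the kidney development list was 0.0477 scaled by library size, 0.0312 with no filter, 0.0124 with the replicate block and −0.20 to 0.0215 leaving out each mouse. Deviations of mice with the same number had an r of 0.014 for mice 1 and −0.016 for mice 3, across genes. With 2 Prdm16fl/fl mice, their deviations mirror each other, so these r values are not separate checks. They cannot show whether the numbers mark litters or batches. The labels do not say so, and the numbers were not taken as pairs. With the mouse number as a replicate block, 3 members at an unadjusted p under 0.05 were higher and 1 lower (4.14% and 8.44% of all genes), the Hox median was 0.21, Hoxc6 was at 0.0570, and 0 of all genes were called. The causes of these shifts were not tested.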
